A study of Homo sapiens with 24 samples.

Results

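The EGF receptor gene EGFR, the genes of 4 of its ligands (HBEGF, AREG, EREG and TGFA) and the receptor inhibitor gene ERRFI1 were followed in IMR90, a fibroblast line from human fetal lung, through 8 days of induced RAS activity. Members were the array probes annotated with these 6 gene symbols, read from 1 probe per gene, the one with the highest mean over all arrays. Of the 6 listed genes, 5 had such a probe and 4 were above background on at least 3 arrays and were tested, out of 10952 genes tested and 18774 genes with a named probe. No probe used here carried the symbol AREG, and AREG was not analysed here. TGFA had 1 probe, which was above background on 0 of 24 arrays.

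Per the labels, all cells expressed ER:RAS-G12V, a mutant RAS protein fused to the estrogen receptor that is switched on by 4-hydroxytamoxifen (4-OHT). Cells in 100 nM 4-OHT were harvested after 2, 8 and 24 h and after 2, 4, 6 and 8 d, and untreated cells served as the 0 h control. Each time point had 3 arrays, 1 from each biological batch (A, B and D), 24 in all. They were hybridised with biotin-labelled cRNA on Illumina BeadChips of 48701 probes. The cells were grown in medium with fetal bovine serum and were passaged with trypsin on the day before harvest, at every time point. Untreated arrays at later times, and cells without the fusion protein in 4-OHT, were not analysed here, so RAS activity, 4-OHT itself and time in culture cannot be told apart.

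EGFR is a transmembrane tyrosine kinase that dimerises when a ligand binds and signals through RAS to the ERK kinases. Its ligands are made as membrane-anchored precursors, and metalloproteases of the ADAM family cut them free to act on the same or on neighbouring cells. ERRFI1 (also called MIG6) binds the kinase domain and inhibits the receptor, and its transcription and that of HBEGF are known targets of ERK signalling, which makes them part of the feedback around the receptor.

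The promoters of the members were read from RefSeq, and those of 3 are shown. ERRFI1 and HBEGF are shown as the members called at 2 h, and EREG as a member called later. Each window runs from 250 bases before to 50 bases after the transcription start on GRCh38.p14, 5′ to 3′ along the gene. Capitals mark a match to one of 6 searched motifs.
ERRFI1, chr1:8026260-8026559, minus strand: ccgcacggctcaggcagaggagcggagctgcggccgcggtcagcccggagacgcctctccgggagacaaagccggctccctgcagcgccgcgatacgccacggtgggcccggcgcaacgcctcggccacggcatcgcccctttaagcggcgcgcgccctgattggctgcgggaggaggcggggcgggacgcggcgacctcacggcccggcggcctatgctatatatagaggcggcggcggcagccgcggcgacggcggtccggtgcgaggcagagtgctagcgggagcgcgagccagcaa
HBEGF, chr5:140346554-140346853, minus strand: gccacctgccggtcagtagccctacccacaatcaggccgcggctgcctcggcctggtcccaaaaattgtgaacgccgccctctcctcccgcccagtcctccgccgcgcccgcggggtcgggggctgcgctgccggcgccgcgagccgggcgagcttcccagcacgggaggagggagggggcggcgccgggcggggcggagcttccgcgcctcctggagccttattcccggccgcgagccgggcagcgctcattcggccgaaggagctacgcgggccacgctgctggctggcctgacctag
EREG, chr4:74364895-74365194, plus strand: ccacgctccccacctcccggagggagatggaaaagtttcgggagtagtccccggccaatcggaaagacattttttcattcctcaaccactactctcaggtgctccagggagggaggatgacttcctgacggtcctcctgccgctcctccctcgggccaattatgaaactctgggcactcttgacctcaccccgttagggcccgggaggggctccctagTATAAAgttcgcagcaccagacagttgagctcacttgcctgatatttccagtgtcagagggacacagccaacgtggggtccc
The motifs, read on both strands, were the AP-1 site TGANTCA, the cyclic AMP response element TGACGTCA, the EGR site GCGTGGGCG, the TATA box TATAAA, the ETS core CCGGAA and the CArG box, which serum response factor binds. Of 35116 RefSeq windows of the same length, 7.71% held the AP-1 site, 1.85% the cyclic AMP response element, 0.795% the EGR site, 11.5% the TATA box, 17.2% the ETS core and 1.29% the CArG box. The EREG window held TATAAA, with its first base 32 bases before the start, and the ERRFI1 and HBEGF windows held 0 of the 6 motifs as written. Other forms of the TATA box were not searched, so the stretch tatatata in the ERRFI1 window is unmarked. Among the windows not shown, that of AREG held TGACGTCA, TATAAA and CCGGAA, and 1 of 2 TGFA windows held the ETS core. Of 2 EGFR windows, that at chr7:55109589-55109888 (GC content 42%) held 2 AP-1 sites and 2 TATA boxes. The other, at chr7:55018767-55019066 (GC content 75.3%), held 0 of the 6 motifs. GC content was 74.7% in the ERRFI1 window, 75% in the HBEGF window and 57.7% in the EREG window, against a median of 58.7% over all windows. The windows held 47, 38 and 12 CpG dinucleotides in the same order, against a median of 14.

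All values below are log2 intensities after background correction and quantile normalization, or differences between means of such values, given ± the standard error of the fit (n = 3 arrays per time point). Values of single arrays are listed in the order batch A, B and D. A gene was called in a comparison when its p from limma, adjusted by the Benjamini-Hochberg method over all 10952 genes, was under 0.05. The 7 comparisons with 0 h share its 3 arrays, so they also share the chance values of those arrays. Over the whole course each of the 4 tested members varied (moderated F test of limma over the differences from 0 h), with adjusted p = 1.85e-06 for EGFR, 1.51e-06 for HBEGF, 5.72e-12 for EREG and 2.11e-05 for ERRFI1. The same test called 69.7% of all genes.

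All 8 of 8 fibroblast markers were above background on all 24 arrays. Of 6 epithelial markers, 0 were above background on all arrays and 4 were on none (CDH1, KRT5, KRT14 and CLDN4), with EPCAM on 4 arrays and KRT19 on 7, and the 3 immune markers with a probe were on none. Of 4 endothelial markers, TEK was above background on all 24 arrays, VWF on 18, PECAM1 on 5 and CDH5 on 0. On the first principal component (65.2% of the variance) the 3 arrays at 4 d lay apart from each other, batch A at 33.6, batch B at 46.7 and batch D at 24.9. The 2 d arrays reached up to −8.88 and the 6 d and 8 d arrays began at 41.3.

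**Figure D1:**
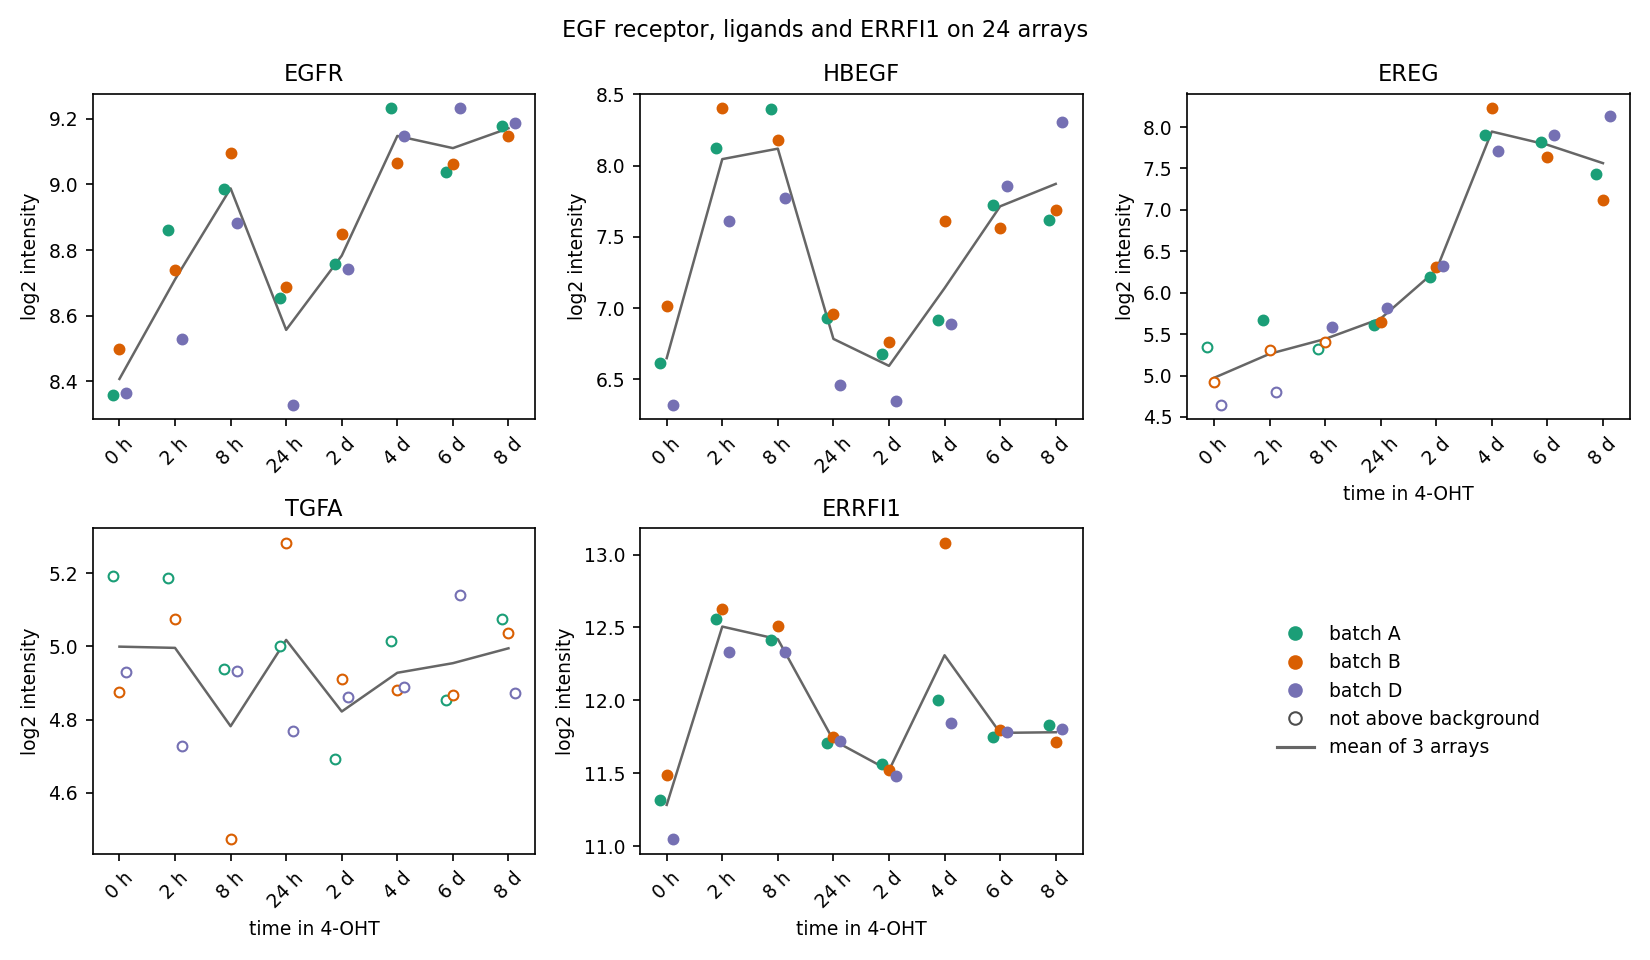
Log2 intensity (vertical axes, each with its own scale) of EGFR, HBEGF, EREG, TGFA and ERRFI1 at the 8 time points, with 1 point per array coloured by batch, open where the probe was not above background, and a line through the means of 3 arrays. HBEGF and ERRFI1 are high at 2 h and 8 h, EREG stands at 7.12 or more on all arrays from 4 d on, and TGFA is open on all 24 arrays.

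HBEGF, which encodes heparin-binding EGF-like growth factor, was high at 2 h and 8 h, came back to the untreated level at 24 h and 2 d and was high again at 6 d and 8 d. On the batch A, B and D arrays HBEGF measured 6.61, 7.01 and 6.32 at 0 h, 8.12, 8.40 and 7.61 at 2 h, and 8.40, 8.18 and 7.78 at 8 h. By 24 h the arrays were back near the 0 h values, at 6.93, 6.96 and 6.46, and 2 d was alike, at 6.68, 6.76 and 6.34. They measured 6.91, 7.61 and 6.89 at 4 d, 7.72, 7.56 and 7.86 at 6 d, and 7.62, 7.69 and 8.31 at 8 d. All arrays at 2 h, 8 h, 6 d and 8 d were above all 0 h arrays, whereas the arrays at 24 h, 2 d and 4 d overlapped the 0 h arrays. In the order of means the neighbouring time points all overlapped, 2 d being lowest (6.59 ± 0.22, SD) and 8 h highest (8.12 ± 0.32, SD). The order between them was 0 h, 24 h, 4 d, 6 d, 8 d and 2 h.

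HBEGF rose 2.63-fold at 2 h against 0 h (1.40 ± 0.23, adjusted p = 0.00220), with 1.51, 1.39 and 1.29 in the 3 batches, and was the 10th of 10952 genes by size of the difference. At 8 h it was 2.77-fold above 0 h (1.47 ± 0.23, adjusted p = 0.000511), with 1.79, 1.17 and 1.45 in the batches, and 9th by size. The 2 h call was lost without batch A (1.34, adjusted p = 0.378) and without batch B (1.40, adjusted p = 0.0552), and the 8 h call without batch A (1.31, adjusted p = 0.132). Between 8 h and 24 h HBEGF fell 2.52-fold (−1.34 ± 0.23, adjusted p = 0.000918), in each batch (−1.47, −1.22 and −1.31), a call also lost without batch A (−1.27, adjusted p = 0.0926). That comparison, and the one of 8 d with 8 h, were added after the values had been seen. HBEGF differed from 0 h by 0.14 at 24 h (adjusted p = 0.744) and by −0.05 at 2 d (adjusted p = 0.903), and neither passed the test.

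The second rise of HBEGF was called at 6 d (1.07 ± 0.23, 2.09-fold, adjusted p = 0.000614) and at 8 d (1.22 ± 0.23, 2.33-fold, adjusted p = 0.000133) against 0 h, and both calls held in every alternative tried. The batches differed in its size, with 1.11, 0.55 and 1.53 at 6 d and 1.00, 0.68 and 1.98 at 8 d in batches A, B and D. At 4 d HBEGF stood 0.49 above 0 h without passing (adjusted p = 0.0928, 0.67 and adjusted p = 0.0399 without 0 h batch B), and 0.55 above 2 d (adjusted p = 0.0720). That difference from 2 d was called without batch D (0.54, adjusted p = 0.0307) and without 4 d batch D (0.67, adjusted p = 0.0473). Without 4 d batch B the difference from 2 d was 0.31 (adjusted p = 0.375) and that from 0 h 0.25 (adjusted p = 0.439). Between 4 d and 8 d HBEGF rose 1.66-fold (0.73, adjusted p = 0.0283), with 0.70, 0.08 and 1.42 in the batches. The last call was lost without batch A (0.75, adjusted p = 0.189), batch D (0.39, 0.148), 4 d batch A (0.62, 0.111), 4 d batch D (0.61, 0.106) or 8 d batch D (0.51, 0.157), and with median centring (0.60, 0.143). The level at 8 d was not called different from that at 8 h (−0.25, adjusted p = 0.401), with −0.78, −0.49 and 0.53 in the batches, and was called lower without batch D (−0.64, adjusted p = 0.0107) while without batch A the difference was 0.02.

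EREG, which encodes epiregulin, a ligand of EGFR and of the related receptor ERBB4, was not above background in untreated cells, was above it on all arrays from 24 h on, and was highest from 4 d on. Its values in batches A, B and D were 5.35, 4.92 and 4.65 at 0 h, 5.67, 5.31 and 4.80 at 2 h, and 5.32, 5.41 and 5.59 at 8 h. The arrays stood at 5.61, 5.64 and 5.81 at 24 h. At 2 d they stood at 6.18, 6.31 and 6.32, higher than on any array of an earlier time. From 4 d on they were highest, at 7.90, 8.23 and 7.71 at 4 d, 7.82, 7.64 and 7.90 at 6 d, and 7.43, 7.12 and 8.14 at 8 d. The probe was above background on 0 of 3 arrays at 0 h, 1 of 3 at 2 h and at 8 h, and 3 of 3 at each later time. In the order of means, 0 h, 2 h and 8 h overlapped in turn (4.97 to 5.44). The arrays at 24 h (5.69 ± 0.11, SD) lay above those at 8 h, those at 2 d (6.27 ± 0.08, SD) above those at 24 h, and the overlapping times 8 d, 6 d and 4 d (7.56 to 7.95) above those at 2 d.

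Since EREG was not above background on the 3 arrays at 0 h, each fold against 0 h is a lower bound. It is the later mean over the mean of the lowest signal above background on each 0 h array (or of the probe's own signal where that was higher). EREG rose at least 1.71-fold at 2 d (fitted difference 1.30 ± 0.22, adjusted p = 0.000103), and at least 5.44-fold at 4 d (2.97, adjusted p = 2.37e-10). It was at least 4.87-fold higher at 6 d (2.81, adjusted p = 2.70e-10) and at least 4.18-fold at 8 d (2.59, adjusted p = 7.69e-10). At 4 d the measured differences were 2.55, 3.31 and 3.06 in the 3 batches, and 0.639% of all genes had a fitted difference as large as 2.97 or larger. These differences and this rank use the 0 h values that were not above background, so the rank is not that of the lower bound. These 4 calls, and the rise of 3.19-fold between 2 d and 4 d (1.67 ± 0.22, adjusted p = 2.33e-06, with 1.72, 1.92 and 1.39 in the batches), held in every alternative tried. The differences from 0 h at 2 h (0.29, adjusted p = 0.919) and 8 h (0.47, adjusted p = 0.245) did not pass.

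The call of EREG at 24 h, at least 1.14-fold (0.72, adjusted p = 0.0232, with 0.26, 0.72 and 1.16 in the batches), was near the threshold. It was lost without batch A (0.94, adjusted p = 0.0569), batch B (0.71, 0.129), batch D (0.49, 0.0572), 0 h batch B (0.69, 0.0638), 0 h batch D (0.56, 0.138), 24 h batch B (0.74, 0.0510) or 24 h batch D (0.65, 0.0769), with an offset of 50 (0.38, 0.0967) and in the authors' series matrix values (0.45, 0.0663). The step between 24 h and 2 d (0.58, adjusted p = 0.0803) was called without batch D (0.62, adjusted p = 0.0181). Between 4 d and 8 d EREG differed by −0.38 (adjusted p = 0.231), and by −0.79 without batch D (adjusted p = 0.00294) and −0.67 without 8 d batch D (adjusted p = 0.0254). Without 4 d batch B the difference was −0.24 (adjusted p = 0.541), and over all alternatives it ranged from −0.79 to −0.020. At 8 d it was 4.36-fold above 8 h by the measured means (2.12, adjusted p = 2.19e-08), with 1 of the 3 arrays at 8 h above background.

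TGFA encodes transforming growth factor alpha, a further ligand. Its probe read 4.47 to 5.28 over the 24 arrays, above background on 0 of them, so no difference was computed for it.

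EGFR itself, by the brightest of its probes, was called higher than in untreated cells at 8 h and from 2 d on, by 1.30-fold to 1.70-fold. The calls at 8 h and 2 d were not made with its other tested probes and were lost in some alternatives, as given below. The probe annotated to the full-length transcript read 8.36, 8.50 and 8.36 at 0 h, 8.86, 8.74 and 8.53 at 2 h, and 8.99, 9.09 and 8.88 at 8 h. At 24 h it was lower again, at 8.65, 8.69 and 8.33, and at 2 d it read 8.76, 8.85 and 8.74. It was high from then on, at 9.23, 9.06 and 9.15 at 4 d, 9.04, 9.06 and 9.23 at 6 d, and 9.18, 9.15 and 9.19 at 8 d. All arrays at 2 h, 8 h, 2 d, 4 d, 6 d and 8 d were above all 0 h arrays, and those at 24 h overlapped them. In the order of means, 0 h (8.41 ± 0.08, SD), 24 h, 2 h and 2 d each overlapped the next. The 2 d arrays lay below those at 8 h (8.99 ± 0.11, SD), 6 d, 4 d and 8 d (9.17 ± 0.02, SD), which overlapped in turn.

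Against 0 h, EGFR was 1.50-fold higher at 8 h (0.58 ± 0.11, adjusted p = 0.00190, with 0.63, 0.60 and 0.52 in the batches). It was 1.67-fold higher at 4 d (0.74, adjusted p = 4.77e-06), 1.63-fold at 6 d (0.70, adjusted p = 7.65e-06) and 1.70-fold at 8 d (0.76, adjusted p = 2.28e-06). At 8 d the batches gave 0.82, 0.65 and 0.82, and the calls at 4 d, 6 d and 8 d held in every alternative except the dimmest tested probe of EGFR. By that probe the differences were 0.21 at 4 d (adjusted p = 0.132), 0.25 at 6 d (0.0675) and 0.23 at 8 d (0.0879). The difference at 2 h was 0.30 (adjusted p = 0.371) and that at 24 h 0.15 (adjusted p = 0.360). Between 8 h and 24 h EGFR fell (−0.43, adjusted p = 0.0128, with −0.33, −0.41 and −0.55 in the batches), and the 8 d level was not called different from the 8 h level (0.18, adjusted p = 0.160). EGFR was 1.30-fold above 0 h at 2 d (0.38, adjusted p = 0.0118) and rose 1.29-fold between 2 d and 4 d (0.36, adjusted p = 0.00921), with 0.47, 0.22 and 0.40 in the batches. Between 4 d and 8 d the difference was 0.02 (adjusted p = 0.909).

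The calls of EGFR before 4 d were lost when some batches were left out and with median centring. Leaving out a batch also lowered the count of all genes called at 8 h, from 502 to 27 without batch A and 137 without batch B. The 8 h call was lost without batch A (0.56, adjusted p = 0.176), without batch B (0.57, 0.0768) and with median centring (0.59, 0.120). The 2 d call was lost without batch A (0.36, adjusted p = 0.177), batch B (0.39, 0.0977) or 2 d batch B (0.34, 0.0549) and with median centring (0.23, 0.497). The rise between 2 d and 4 d was lost without batch A (0.31, adjusted p = 0.175) and with median centring (0.39, 0.141). The fall between 8 h and 24 h was lost without batch A (−0.48, adjusted p = 0.194), batch B (−0.44, 0.160), 8 h batch B (−0.38, 0.0766) or 24 h batch D (−0.32, 0.0989) and with median centring (−0.61, 0.0580).

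EGFR had 4 probes, and those annotated to shorter transcripts, which encode the extracellular part of the receptor without the kinase, were read separately. The brighter of these was above background on all 24 arrays and read 6.29, 6.47 and 6.54 at 0 h and 6.70, 6.33 and 6.87 at 8 h. It read 7.49, 7.77 and 7.14 at 4 d, 7.65, 7.53 and 7.61 at 6 d and 7.16, 7.49 and 7.89 at 8 d. The arrays from 4 d on lay above all 0 h arrays, whereas the 8 h arrays overlapped them. With this probe the difference from 0 h was 0.20 at 8 h (adjusted p = 0.641), and EGFR rose 2.05-fold at 4 d (1.03, adjusted p = 6.43e-05), 2.24-fold at 6 d (1.16, adjusted p = 1.22e-05) and 2.11-fold at 8 d (1.08, adjusted p = 3.05e-05). By the same probe the 8 d level was above the 8 h level (0.88, adjusted p = 0.000314). The dimmer of these probes was above background on 6 of 24 arrays and read 4.97 to 5.67, and the remaining one was on 0 arrays (4.68 to 5.19). The 2 d difference by the brighter short-transcript probe was 0.38 (adjusted p = 0.142) and that between 8 h and 24 h −0.23 (adjusted p = 0.504), so neither call of the full-length probe was made with it. The difference between the probes was not tested.

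**Figure D2:**
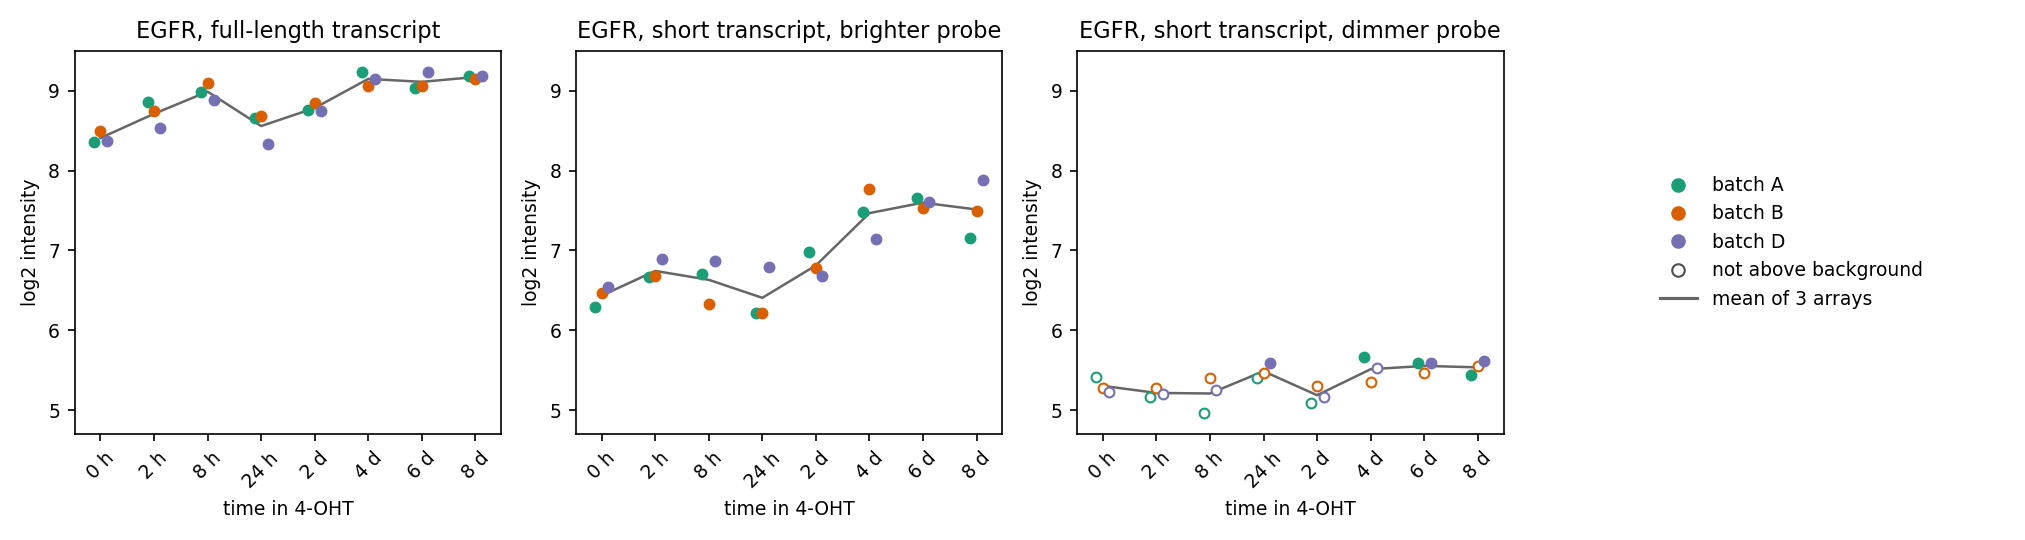
Log2 intensity (vertical axes on 1 scale) of the 3 EGFR probes that were above background on any array, by time in 4-OHT, with 1 point per array coloured by batch, open where not above background, and a line through the means of 3 arrays. The full-length probe is high at 8 h and from 4 d on, the brighter short-transcript probe is high from 4 d on, and most points of the dimmer probe are open.

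ERRFI1, the receptor inhibitor, was high at 2 h and 8 h, as HBEGF was, and again at 4 d. In batches A, B and D it read 11.31, 11.49 and 11.05 at 0 h, 12.56, 12.63 and 12.33 at 2 h, and 12.41, 12.51 and 12.33 at 8 h. It came down to 11.71, 11.75 and 11.72 at 24 h and 11.56, 11.52 and 11.48 at 2 d. It then read 12.00, 13.08 and 11.85 at 4 d, 11.75, 11.80 and 11.79 at 6 d, and 11.83, 11.71 and 11.80 at 8 d. All arrays at every later time except 2 d were above all 0 h arrays, and the batch B array at 4 d had the highest value of the 24. In the order of means, 0 h (11.28 ± 0.22, SD) overlapped 2 d, which lay below the overlapping times 24 h, 6 d and 8 d (11.73 to 11.78). These lay below 4 d (12.31 ± 0.67, SD), 8 h and 2 h (12.51 ± 0.16, SD).

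ERRFI1 rose 2.33-fold at 2 h against 0 h (1.22 ± 0.19, adjusted p = 0.00105, with 1.24, 1.14 and 1.28 in the batches), and was 20th by size of the difference. It rose 2.20-fold at 8 h (1.14, adjusted p = 0.000878, with 1.10, 1.03 and 1.29). The 2 h call was lost without batch A (1.21, adjusted p = 0.335) and with median centring (1.05, 0.0767), and the 8 h call without batch A (1.16, adjusted p = 0.122). Between 8 h and 24 h ERRFI1 fell 1.62-fold (−0.69, adjusted p = 0.0275, with −0.71, −0.76 and −0.61), and at 24 h and 2 d it was not called against 0 h (0.44, adjusted p = 0.115, and 0.24, adjusted p = 0.417). The fall was lost without batch A (−0.69, adjusted p = 0.338) or batch D (−0.73, 0.0520) and without any one of 8 h batch A (−0.70, 0.0818), 8 h batch B (−0.65, 0.107), 24 h batch A (−0.68, 0.0773), 24 h batch B (−0.71, 0.0652) or 24 h batch D (−0.69, 0.0745). Without batch B, ERRFI1 was called at 24 h (0.53, adjusted p = 0.0180).

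At 4 d ERRFI1 was 2.04-fold above 0 h (1.03, adjusted p = 0.000129), with 0.69, 1.59 and 0.80 in the batches, and 1.73-fold above 2 d (0.79, adjusted p = 0.00235), with 0.44, 1.56 and 0.37. Without the 4 d array of batch B these differences were 0.64 (adjusted p = 0.000105) and 0.40 (adjusted p = 0.00997). Between 4 d and 8 d the difference was −0.53 (adjusted p = 0.0536), with −0.17, −1.37 and −0.04 in the batches. It was called with the batch as a replicate block (adjusted p = 0.0356) and without batch D (−0.77, adjusted p = 0.0189), 4 d batch A (−0.68, 0.0253) or 4 d batch D (−0.76, 0.00600). All of these keep the 4 d array of batch B, and without that array the difference was −0.14 (adjusted p = 0.439). The 8 d level stayed below the 8 h level (−0.64, adjusted p = 0.00811), a call lost without batch A (−0.67, adjusted p = 0.0778).

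ERRFI1 was 1.41-fold above 0 h both at 6 d (0.49, adjusted p = 0.0386) and at 8 d (0.50, adjusted p = 0.0358), close to the threshold. The 6 d call was lost without batch A (0.52, adjusted p = 0.180), batch D (0.37, 0.186), 0 h batch A (0.51, 0.0694), 0 h batch D (0.38, 0.163) or any 1 of the 6 d arrays (0.48 to 0.51, adjusted p from 0.0694 to 0.0853). The 8 d call was lost without batch A (0.49, adjusted p = 0.197), batch D (0.37, 0.185), 0 h batch A (0.51, 0.0641), 0 h batch D (0.38, 0.152) or any 1 of the 8 d arrays (0.47 to 0.53, adjusted p from 0.0543 to 0.0843). With median centring the differences were 0.33 at 6 d (adjusted p = 0.332) and 0.27 at 8 d (0.414), and with no filter on dim probes the 6 d call was lost too (adjusted p = 0.0526).

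Counted over the members, the early calls stood on a small background and the late ones on a large one. At 2 h against 0 h, 2 of 4 tested members rose and 0 fell (HBEGF and ERRFI1), where 0.621% of all genes were called (0.42% higher and 0.201% lower). The members' median difference was 0.76 against −0.02 over all genes. At 8 h, 3 of 4 rose and 0 fell, with 4.58% of all genes called (2.13% higher and 2.46% lower) and a median of 0.86 against −0.01. At 24 h, 1 of 4 rose (EREG), with 18.1% of all genes called (6.89% higher and 11.2% lower). At 2 d, 2 of 4 rose (EGFR and EREG), with 23.6% called (11% higher and 12.5% lower). At 4 d, 3 of 4 rose, with 44.1% of all genes called (21.8% higher and 22.3% lower). All 4 tested members rose at 6 d, with 45.5% of all genes called (23.8% higher and 21.7% lower) and a median of 0.88 against 0.03. All 4 also rose at 8 d, with 47.6% called (24.1% higher and 23.5% lower) and a median of 0.99 against 0.02.

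Between treated time points, not all of them neighbours, 0 of 4 members were called at 2 d against 24 h by limma (2 at an unadjusted p under 0.05). Of all genes, 12% were called there (6.75% higher and 5.28% lower). At 4 d against 2 d, 3 of 4 rose (EGFR, EREG and ERRFI1), with 36.2% of all genes called (17% higher and 19.2% lower) and a median of 0.67 against −0.01. At 8 d against 4 d, 1 of 4 rose (HBEGF), with 20.4% called (10.4% higher and 10.1% lower). At 24 h against 8 h, 3 of 4 fell and 0 rose (EGFR, HBEGF and ERRFI1), with 7.11% of all genes called (2.23% higher and 4.88% lower). At 8 d against 8 h, 1 rose (EREG) and 1 fell (ERRFI1), with 48.3% called (24.7% higher and 23.6% lower). The comparisons of 24 h and of 8 d with 8 h were added after the values had been seen, so their counts are descriptive. The counts at 2 h, 8 h and 24 h against 0 h, and at 24 h against 8 h, were 0 without batch A. Of all genes, 1, 27, 663 and 83 were called in these comparisons without it.

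**Figure D3:**
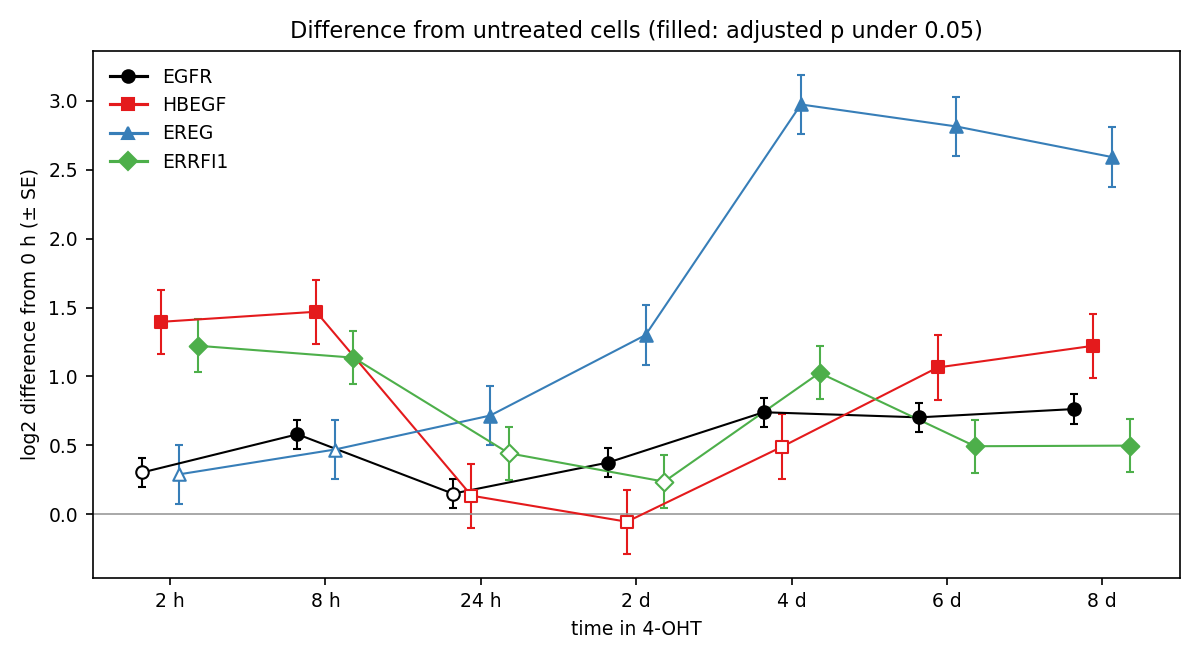
Log2 difference from 0 h (vertical axis, ± SE of the fit) of EGFR, HBEGF, EREG and ERRFI1 at each later time in 4-OHT, from 3 arrays per time point, filled where the adjusted p was under 0.05. HBEGF and ERRFI1 stand at 1.14 to 1.47 at 2 h and 8 h, and EREG at 2.59 to 2.97 from 4 d on, where its 0 h value was not above background.

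The genes whose course over the 24 arrays was most like that of each member were found by Pearson correlation, given as a description over arrays that share time points and batches. EGFR was nearest to ANGPTL4 (r = 0.894), SLC33A1 (0.885) and JARID2 (0.874), and HBEGF to ST3GAL1 (0.872), KBTBD8 (0.844) and DAPK3 (0.832). EREG was nearest to POU2F2 (0.962), MME (0.959) and IL1A (0.957), and ERRFI1 to PDGFB (0.811), ARID3B (0.792) and MICALCL (0.785).

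Of 48 other genes of the pathway, 41 were tested. At 2 h and at 8 h against 0 h, 0 of the 41 were called by limma (2 higher and 0 lower at an unadjusted p under 0.05 at each time). Of all genes, 0.621% were called at 2 h and 4.58% at 8 h. At 8 d against 0 h, 12 were higher and 7 lower (of all genes, 24.1% and 23.5%), with a median of 0.08 against 0.02 over all genes. With median centring 7 were higher and 7 lower, and of all genes 4222 were called, 27.3% of them higher. At 4 d against 2 d, 11 were higher and 3 lower (of all genes, 17% and 19.2%), with a median of 0.16 against −0.01. Without the 4 d array of batch B, and without all of batch B, 4 were higher. With median centring, and without batch A, 0 were lower, and without batch B or 2 d batch A, 1 was. The count of all genes called in this comparison fell too, from 3963 to 1971 without batch B (50.3% of them higher). It was 2310 without batch A (46.3% higher) and 2483 with median centring (55.8% higher).

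Of the other ligands, 3 of 7 were tested. NRG1, the neuregulin that binds ERBB3 and ERBB4, had the lowest adjusted p of the list at 8 d. It read 7.55, 7.51 and 6.93 at 0 h and 8.02, 7.82 and 7.95 at 2 d. It read 10.62, 11.42 and 9.67 at 4 d, 11.53, 11.58 and 11.44 at 6 d, and 11.31, 11.21 and 11.88 at 8 d, so that every array from 4 d on was above every 0 h and 2 d array. NRG1 was 17.6-fold above 0 h at 8 d (4.14 ± 0.30, adjusted p = 1.02e-10) and 6.24-fold above 2 d at 4 d (2.64, adjusted p = 5.03e-07), and its next brightest probe gave 3.50 and 1.69. EGF itself read 4.89, 4.89 and 5.04 at 8 d, above background on 0 of 3 arrays, against 5.71, 6.06 and 5.70 at 0 h, and fell at least 1.23-fold (fitted −0.88, adjusted p = 5.68e-05). BTC, NRG2 and NRG4 were above background on 0 arrays.

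Of the other receptors, ERBB4 was above background on 0 arrays and ERBB3 on 1. ERBB2, the partner of EGFR in heterodimers, was above background on 10 arrays, and read 5.25 to 5.77 over the course. It was called lower at 6 d against 0 h (fitted −0.30, adjusted p = 0.0418), where 0 of 3 arrays at 6 d were above background, and differed by −0.25 at 8 d (adjusted p = 0.0895).

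Of 10 genes of ligand release, 4 were higher and 1 lower at 8 d against 0 h, where 24.1% and 23.5% of all genes were. At 4 d against 2 d, 6 were higher and 0 lower, against 17% and 19.2% of all genes, with a median of 0.42. RHBDF2 and RHBDF1 encode the inactive rhomboids that carry the ligand-cutting protease ADAM17 to the cell surface. RHBDF2 read 9.65, 9.80 and 9.51 at 8 d against 7.46, 7.44 and 7.45 at 0 h, with no overlap, and was 4.61-fold higher (2.21 ± 0.22, adjusted p = 1.84e-08), with 0.43 by its other probe. RHBDF1 read 12.98, 13.19 and 12.78 at 8 d against 11.58, 11.60 and 11.69 at 0 h and was 2.57-fold higher (1.36, adjusted p = 2.82e-07). CD9, a tetraspanin that binds the HBEGF precursor, rose at 8 d (1.04, adjusted p = 3.20e-07), as did the sheddase gene ADAM12 (0.89, adjusted p = 7.38e-06, above background on 2 of 3 arrays at 0 h, with 0.30 by another probe). TIMP3, an inhibitor of ADAM17, fell at least 1.71-fold (fitted −0.92, adjusted p = 1.06e-05), with 5.33, 5.34 and 5.46 at 8 d, above background on 0 of 3 arrays, against 6.43, 6.15 and 6.31 at 0 h. ADAM17 differed by −0.00 (adjusted p = 0.989).

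Of the same genes at 4 d against 2 d, RHBDF2 rose 2.53-fold (1.34, adjusted p = 5.45e-05), with 0.32 by its other probe. ADAM12 rose at least 1.31-fold (fitted 0.52, adjusted p = 0.00418), with 0.37 by another probe, a call lost without batch A (0.48, adjusted p = 0.0859). RHBDF1 rose by 0.56 (adjusted p = 0.00928) and CD9 by 0.45 (adjusted p = 0.00774). Without the 4 d array of batch B these were 0.40 (adjusted p = 0.0813) and 0.28 (adjusted p = 0.0800), and without the whole batch 0.39 (0.118) and 0.23 (0.338).

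Of 10 adaptors and effectors at the receptor, 3 were higher and 1 lower at 8 d against 0 h (of all genes, 24.1% and 23.5%), and 2 higher and 0 lower at 4 d against 2 d (of all genes, 17% and 19.2%). SHC1, the adaptor that links the receptor to RAS, rose at 8 d (0.56, adjusted p = 0.00153, with 0.60 and 0.49 by other probes; 0.36, adjusted p = 0.172 with median centring). It rose by 0.48 between 2 d and 4 d (adjusted p = 0.00793), with 0.47 and 0.11 by the other probes. This call was lost without 4 d batch B (0.29, adjusted p = 0.0868) and without all of batch B (0.26, 0.244).

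Of 17 tested genes of receptor turnover and inhibition, 4 were higher and 4 lower at 8 d against 0 h, near the shares of all genes (24.1% and 23.5%). At 4 d against 2 d, 2 were higher and 3 lower, where 17% and 19.2% of all genes were. At 8 d against 0 h, SH3KBP1, an adaptor in receptor internalisation, rose (1.03, adjusted p = 2.66e-07). RAB7A of late endosomes rose as well (0.68, adjusted p = 1.34e-06). In the same comparison LRIG2, a relative of the receptor inhibitor LRIG1, rose too (0.57, adjusted p = 0.000220), with 0.40 and adjusted p = 0.0540 under median centring. SOCS5, a suppressor of cytokine signalling, read 7.55, 7.22 and 7.63 at 8 d against 8.48, 8.49 and 8.29 at 0 h and fell by 0.95 on the log2 scale (adjusted p = 4.90e-07). It also fell between 2 d and 4 d (−0.55, adjusted p = 0.000840), a call lost without batch A (−0.53, adjusted p = 0.0527) and with median centring (−0.52, 0.0668).

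**Figure D4:**
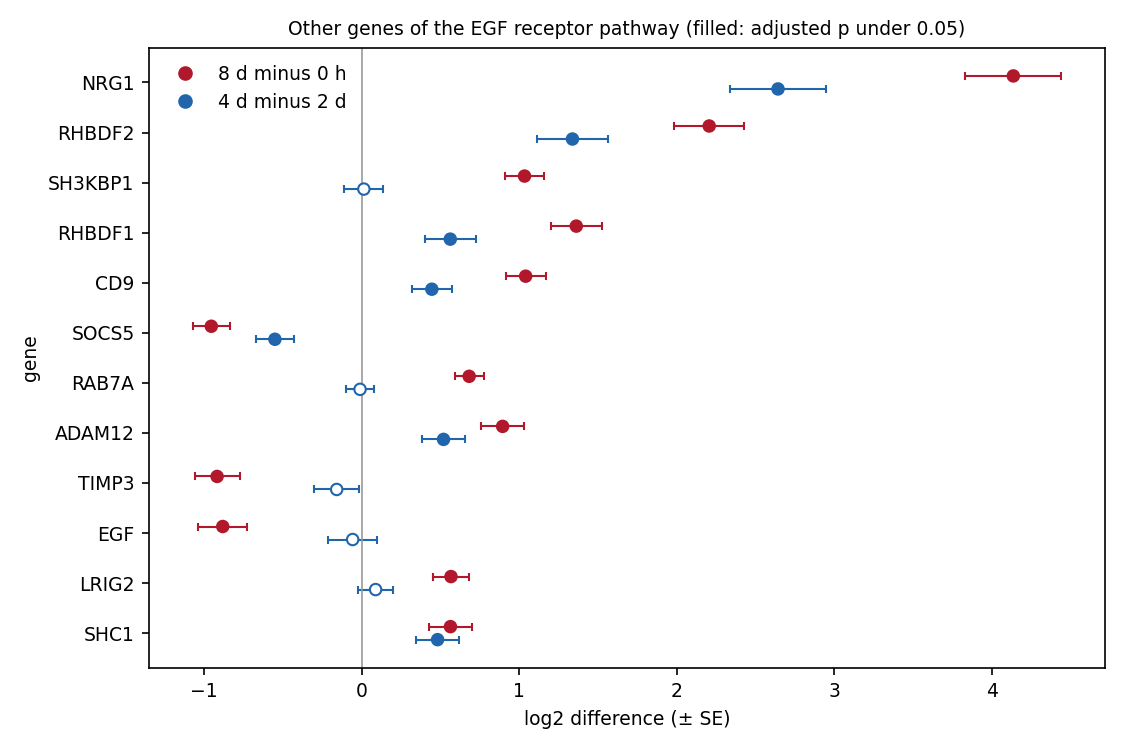
Log2 difference (horizontal axis, ± SE of the fit) of the 12 named genes of the pathway at 8 d against 0 h and at 4 d against 2 d, from 3 arrays per time point, filled where the adjusted p was under 0.05. NRG1 at 4.14 and RHBDF2 at 2.21 lie farthest to the right at 8 d, and SOCS5, TIMP3 and EGF lie to the left of 0.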

How the data were processed

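The deposited array values are log2 intensities of 48701 probes on 24 Illumina arrays. The deposited series matrix differed from a quantile normalization of them by a median of 0.00274, and the software and any background step are not given in the sources used here. Deposited column medians were 5.63 to 6.10, series matrix medians 5.81 to 5.82, and all sample columns were used. No control probes or detection p were used. Probes were named from the platform annotation (23687 had 1 symbol, 35 several and 24979 none, and 99.8% matched by Entrez ID).

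Linear intensities were corrected with normexp (offset 16), and their log2 values were quantile-normalized, in R 4.3.3 with limma 3.58.1. A probe was above background where a normal model per array, with its mode (5.54 to 6.01) and the spread below that mode, gave a probability under 0.01 (26.5% to 30.0% of probes). Genes above background on at least 3 arrays entered limma with 8 group means, 16 residual and 6.70 prior degrees of freedom, and a threshold of 0.05 on the p adjusted within each comparison. Folds of genes above background on 0 of 3 arrays of the dimmer group are lower bounds. Precision is limited by the 3 arrays per time point. The script was tested on simulated data.

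The members and lists were chosen with earlier results of these data known. Named genes are the members, up to 12 pathway genes past the test at 8 d against 0 h or 4 d against 2 d in order of adjusted p at 8 d, and the 3 genes nearest to each member. ERBB2, ADAM17 and the receptors and ligands at background are named outside this rule, chosen after their values were seen. Batch letters, biological batches per the labels, were taken to pair the arrays in the differences per batch and in the replicate-block alternative. The reported fit did not pair the arrays. The mean residual correlation of arrays with a shared letter was 0.0369 for A, 0.00439 for B and 0.0600 for D. Alternatives were the series matrix values, an offset of 50, median centring, other filters on dim probes, the batch as a replicate block, each array or batch left out, and the other EGFR probes. AREG was not analysed here. Promoters are from RefSeq, GRCh38.p14.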

Additional observations from a re-analysis of the deposited data

How the results depend on the processing

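The number of members called at 4 d, 6 d and 8 d against 0 h and at 4 d against 2 d stayed within 1.5 times of the reported count under all alternatives, as did the number varying over the course. Over all comparisons, 155 of 180 alternative counts of members did so. With median centring 1 member was called at 2 h, 1 at 2 d and 0 at 8 d against 4 d, and at 24 h against 0 h 0 were called with the series matrix values and 0 with an offset of 50. With the batch as a replicate block, the paired fit, 2 members were called at 8 d against 4 d, and 47 of 48 member results kept their call, the exception being ERRFI1 in that comparison. Leaving out arrays or batches, the counts ranged from 0 to 2 at 2 h, 0 to 3 at 8 h, 0 to 1 at 24 h, 1 to 2 at 2 d, 0 to 1 at 2 d against 24 h, 0 to 2 at 8 d against 4 d, 0 to 3 at 24 h against 8 h and 1 to 3 at 8 d against 8 h. No difference that turned sign was called in the alternative. By its dim probe EGFR gave −0.089 at 2 h, −0.096 at 8 h, −0.12 at 2 d, −0.30 at 2 d against 24 h and 0.28 at 24 h against 8 h, where the full-length probe was called at 8 h, at 2 d and at 24 h against 8 h. By the brighter short-transcript probe it gave −0.027 at 24 h. With median centring EGFR gave −0.011 at 24 h, −0.12 at 8 d against 4 d and −0.10 at 8 d against 8 h, and HBEGF −0.0070 at 24 h. Without single arrays or batches, HBEGF ranged from −0.028 to 0.32 at 24 h, −0.22 to 0.13 at 2 d and −0.64 to 0.021 at 8 d against 8 h, and EGFR from −0.018 to 0.065 at 8 d against 4 d.

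The count of all genes called moved with the scaling and with the batches. Leaving out arrays or batches gave 1 (without batch A) to 150 (without batch D) genes at 2 h, against 68 reported (23 with median centring and 13 without batch B). It gave 27 to 580 at 8 h (502 reported, 165 with median centring), 663 to 1676 at 24 h (1981 and 1356), 866 to 2640 at 2 d (2582 and 1676), 3103 to 5026 at 4 d (4830 and 3523) and 3277 to 4975 at 6 d (4982 and 3846). It gave 120 to 1867 at 2 d against 24 h (1317 and 521), 1971 to 4360 at 4 d against 2 d (3963 and 2483), 854 to 2661 at 8 d against 4 d (2238 and 1287) and 83 to 924 at 24 h against 8 h (779 and 529). The lowest count came without batch A in each of these except 4 d against 2 d, where it came without batch B. Median centring moved the median of all genes to −0.19 at 2 h, −0.13 at 24 h, −0.12 at 6 d and −0.15 at 8 d against 0 h, against −0.02 to 0.03 in the reported values. It lowered the share of higher genes among those called to 56.5% at 2 h, against 67.6% reported, and likewise to 10.5% against 38.1% at 24 h, 20.6% against 46.9% at 2 d, 37.3% against 49.5% at 4 d, 30.4% against 52.2% at 6 d, 27.3% against 50.7% at 8 d, 25.0% against 50.7% at 8 d against 4 d, 4.73% against 31.3% at 24 h against 8 h and 29.7% against 51.1% at 8 d against 8 h. The share was 55.8% against 47.0% at 4 d against 2 d, 56.2% against 56.1% at 2 d against 24 h and 40.6% against 46.4% at 8 h. The cause was not tested. Values near background, as for EREG before 24 h, have little room to show a difference, and p-values rest on 3 arrays per time point of 1 cell line.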
